A study of Mus musculus with 12 samples.

Results

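The 8 genes described here act on arginine and tryptophan: Arg1, Arg2, Nos2, Ass1, Slc7a2, Odc1, Il4i1 and Ido1. They were taken by name from the 31053 genes of the count matrix, and all 8 had an entry and at least 1 UMI (unique molecular identifier, a tag that marks each captured mRNA). Their mRNA was counted by scRNA-Seq in CD45+ cells that microbeads had enriched from subcutaneous tumors of MC38, a mouse colon adenocarcinoma line, grown in C57BL/6 mice and harvested on day 17. Of the 12 mice, 3 received vehicle and 3 received the EZH2 inhibitor PF-06821497 (EZH2i) at 100 mg/kg daily from day 10 (7 days), and 3 received vehicle and 3 received EZH2i at 100 mg/kg daily from day 1 (16 days). Cell barcodes end in a library number, 1 to 12, which the labels tie to no mouse and no treatment. The libraries were therefore described one by one or by their lowest, median and highest value, and no EZH2i effect was tested.

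Arginine is the shared substrate of arginases, which release urea and ornithine, and of nitric oxide synthases, which release citrulline and nitric oxide. Myeloid cells of tumors are known for arginine use by both routes, and depletion of arginine or of tryptophan is known to restrain T cells. Ornithine feeds polyamine synthesis, citrulline can be turned back into arginine, and tryptophan is broken down by separate oxidative enzymes.

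The study's limits on gene number and mitochondrial share kept 128912 of 140639 barcodes (91.7%), and the median depth of the kept cells was 2291 to 15081 UMIs over the libraries. Levels are given as CPM, the UMIs of a gene per 1000000 UMIs. Libraries 1 to 6 carried Y-linked transcripts (128 to 209 CPM) and only 14 Xist UMIs, whereas libraries 7 to 12 carried Xist (658 to 870 CPM) and 0 Y-linked UMIs. The study's methods name female mice only. Library 4 held 1494 of the 3421 neutrophils and only 21 T cells. A total of 2261 of 138353 barcode sequences (1.63%) occurred in more than 1 library, at most 182 in any pair.

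Classes were gated on lineage UMIs. Macrophages (80338 cells, 62.3%) had at least 60 UMIs of C1qa, C1qb, C1qc, Ms4a7 and Adgre1 per 10000, monocytes (6556) carried Ly6c2, Plac8, Ccr2 and Vcan, neutrophils (3421) carried S100a8, S100a9, Csf3r, Cxcr2, Retnlg and G0s2, and dendritic cells (1979) carried 2 or more of 11 dendritic genes such as Flt3, Xcr1 and Ccr7. The 4 classes took in 92294 cells. A further 6365 cells with both macrophage and monocyte genes were kept as an intermediate class, and 23749 cells (18.4%) stayed ungated. Of 5 myeloid genes that the gate did not use, Csf1r, the receptor of a macrophage growth factor, stood at 486 CPM in macrophages, 376 CPM in monocytes, 118 CPM in neutrophils and 33.2 CPM in dendritic cells over all libraries. Cd68, a lysosomal protein, stood at 599, 384, 251 and 95.1 CPM in the same order. Fcgr1 and Lyz2 were higher in monocytes (702 and 8952 CPM) than in macrophages (367 and 8269 CPM), and Itgam was highest in neutrophils (509.7 CPM, against 377 CPM in monocytes, 164 CPM in macrophages and 30.2 CPM in dendritic cells). The cut was not a gap in the data, since 2134 macrophages lay within 10 UMIs per 10000 above it and 2387 ungated cells within 10 below it. T cells (6187), which should hold little of the myeloid genes, gave the background. A class was used in a library with at least 50 cells, which left 10 libraries for neutrophils and 11 for T cells. UMIs were summed over the cells of a class in a library before scaling to CPM; tags were counted at the 3' end, so no scaling by length was made.

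The arginases are paralogs counted side by side, and their transcripts were compared to see whether UMIs of one could be counted for the other. Their coding sequences (972 bases for Arg1 and 1065 bases for Arg2 in GENCODE transcripts on GRCm38) were identical at 62.1% of 965 aligned bases, and across the whole transcripts the longest run shared by both was 12 bases.

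Arg1, the cytosolic arginase (ENSMUSG00000019987; chr10:24915221-24927484, minus strand, GRCm38), was by far the most abundant member, with 636843 UMIs in the kept cells, of which 65.9% lay in macrophages. In macrophages it stood at 468 CPM in the lowest library, 642 CPM in the median and 1895 CPM in the highest. Libraries 7 (1895 CPM) and 4 (1139 CPM) lay above the other 10, whose highest value was 822 CPM. In monocytes it ranged from 305 to 3842 CPM with a median of 953 CPM, and the same libraries led, 4 with 3842 CPM and 7 with 2111 CPM. Monocytes exceeded macrophages in 10 of 12 libraries, by 1.26-fold in the median, but the range of macrophages lay within that of monocytes. Libraries 5 and 6 had the opposite order. The intermediate cells stood at 454.5 to 2236 CPM.

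Dendritic cells held little Arg1, at 12.96 to 542 CPM with a median of 38.1 CPM. The 542 CPM belonged to library 4, and without it the highest was 92.3 CPM. T cells stood at 8.97 to 338 CPM and exceeded dendritic cells in 9 of 11 libraries. The 2 highest T cell sums lay in few cells, with 817 UMIs in 88 of 698 T cells of library 7 and 232 UMIs in 6 of 92 of library 12. The share of cells with an Arg1 UMI was higher in dendritic cells in 8 of 11 libraries without thinning, at a median depth of 4697 against 2778 UMIs, and in 1 of 11 after thinning to 1000 UMIs, so dendritic Arg1 was not told apart from background in most libraries. In library 10 dendritic cells stood at 92.3 CPM against 8.97 CPM in T cells, in library 6 at 62.6 against 48.6 CPM, and library 4 held too few T cells to compare. Neutrophils stood at 49.5 to 1260 CPM with a median of 154 CPM, and exceeded T cells in 5 of 9 libraries. Again library 4 gave the 1260 CPM, and without it the highest was 303 CPM. In that library the neutrophil class also carried the highest sum of the 5 macrophage markers, 1165 CPM against a median of 572 CPM over 10 libraries, and the dendritic class carried 615 CPM against a median of 275 CPM, although the highest such sum, 1045 CPM, belonged to the dendritic cells of library 6, whose Arg1 stood at 62.6 CPM; their part in the Arg1 values was not tested. When each cell was thinned to 1000 UMIs, Arg1 was found in 30.7% of macrophages (25.2% to 61.4%), 29.7% of monocytes (16.9% to 71.3%), 7.64% of neutrophils (3.02% to 25.1%), 1.81% of dendritic cells (0% to 14.0%) and 3.92% of T cells (0.746% to 5.94%), each given as the median and range over libraries. Cells under 1000 UMIs were left out of these shares, 978 macrophages, 303 monocytes, 1181 neutrophils, 41 dendritic cells and 497 T cells. Without thinning the share was 65.6% of macrophages (44.7% to 88.3%) and 7.69% of T cells (1.39% to 12.6%).

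Arg2, the mitochondrial arginase (ENSMUSG00000021125; chr12:79130777-79156301, plus strand), separated the neutrophils from every other class. It stood at 229 to 561 CPM in the 10 neutrophil sums, with a median of 449 CPM. Monocytes reached 8.93 to 38.3 CPM (median 29.3 CPM), macrophages 4.77 to 11.7 CPM (median 7.23 CPM), dendritic cells 0 to 10.1 CPM and T cells 2.12 to 8.97 CPM. The lowest neutrophil value, 229 CPM in library 4, was thus above the highest monocyte value, and neutrophils exceeded macrophages by 29.7- to 87.8-fold, with a median of 55.9-fold. Monocytes exceeded macrophages in 12 of 12 libraries by a median of 4.12-fold and T cells in 11 of 11, whereas dendritic cells exceeded T cells in only 5 of 11. Neutrophils were 3421 of the kept cells and held 27.1% of the 11909 Arg2 UMIs, while macrophages, at a low level in many more cells, held 36.1%. Over libraries the neutrophil share was 0.835% to 53.2% (median 15.2%) and the macrophage share 14.4% to 68.9% (median 44.3%). Neutrophils held more than macrophages in libraries 4, 8, 10 and 12. An antisense gene, Gm48780, and the end of Vti1b overlap Arg2 on the opposite strand.

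**Figure D1:**
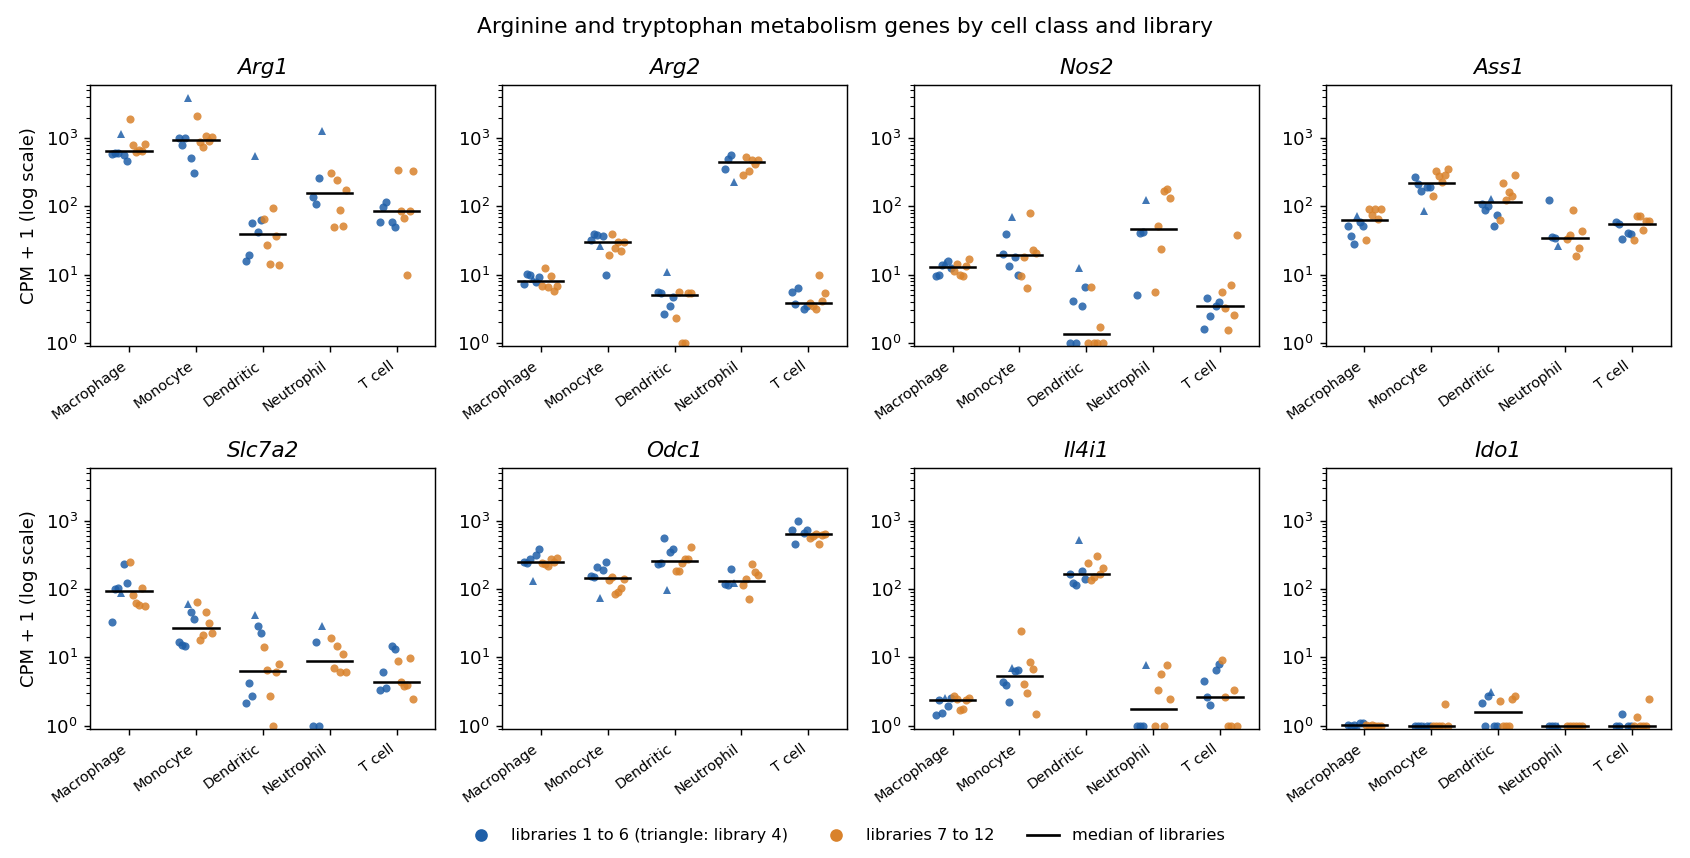
Level of each of the 8 genes (CPM + 1, log axis) in macrophages, monocytes, dendritic cells, neutrophils and T cells; each point is 1 library with at least 50 cells of the class, blue for libraries 1 to 6 (triangle for library 4) and orange for libraries 7 to 12, and black lines are medians over libraries. Arg2 stood apart in neutrophils (229 to 561 CPM), Il4i1 in dendritic cells (112 to 528 CPM), and Odc1 was highest in T cells (457 to 987 CPM).

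Slc7a2, a transporter of cationic amino acids that carries arginine into the cell (ENSMUSG00000031596; chr8:40862396-40922308, plus strand), was led by macrophages among the 4 myeloid classes in all 12 libraries. Its level there was 32.4 CPM in the lowest library, 92.6 CPM in the median and 245 CPM in the highest, and libraries 7 (245 CPM) and 5 (231 CPM) lay well above the next, at 122 CPM. Monocytes stood at 13.5 to 62.5 CPM, and macrophages exceeded them by 1.28- to 7.54-fold with a median of 3.41-fold. Dendritic cells (0 to 41.0 CPM) and neutrophils (0 to 27.9 CPM) had medians of 5.39 and 7.98 CPM, and T cells one of 3.34 CPM. Dendritic cells exceeded T cells in 5 of 11 libraries. Neutrophils did so in 7 of 9, by a median of 1.77-fold. Macrophages held 82.6% of the 76496 UMIs. Ungated cells stood above macrophages in 3 of 12 libraries, among them library 4, at 138 against 87.0 CPM. The long noncoding gene Gm26584 overlaps Slc7a2 on the opposite strand.

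Ass1, which joins citrulline to aspartate in the resynthesis of arginine (ENSMUSG00000076441; chr2:31470207-31520672, plus strand), was led by monocytes among the 4 myeloid classes in 11 of 12 libraries. In library 4 dendritic cells led, at 128 CPM against 84.0 CPM in monocytes. Monocytes stood at 84.0 to 349 CPM with a median of 218 CPM, and macrophages at 26.8 to 91.5 CPM with a median of 62.0 CPM. Monocytes exceeded macrophages in 12 of 12 libraries, by a median of 3.79-fold, with the smallest ratio, 1.17-fold, in library 4. Intermediate cells stood between them in the median, at 169 CPM (100 to 368 CPM). Dendritic cells reached 50.1 to 292 CPM (median 116 CPM) and exceeded macrophages in 11 of 12 libraries by a median of 2.04-fold. Macrophages hardly differed from T cells, which stood at 31.1 to 71.1 CPM (median 53.9 CPM): they were higher in 8 of 11 libraries by a median of 1.08-fold. Neutrophils stood at 17.7 to 124 CPM, below T cells in 5 of 9 libraries. In library 10 they stood at 17.7 CPM against 44.8 CPM in T cells and 91.0 CPM in macrophages. The T cell level may thus lie above free RNA for this gene, and macrophage Ass1 is not read as background.

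Odc1, ornithine decarboxylase, the enzyme that commits ornithine to polyamines (ENSMUSG00000011179; chr12:17544794-17551505, plus strand), was the least restricted member. It stood at 129 to 390 CPM in macrophages, 73 to 244 CPM in monocytes, 96.4 to 548 CPM in dendritic cells and 69.5 to 233 CPM in neutrophils, with medians of 248, 144, 256 and 132 CPM. Macrophages exceeded monocytes in 12 of 12 libraries (median 1.74-fold) and neutrophils in 10 of 10 (median 1.70-fold), and dendritic cells in 7 of 12 with a median ratio of 1.01, so the order of macrophages and dendritic cells did not hold across libraries. T cells exceeded macrophages in 11 of 11 libraries, at 457 to 987 CPM and by a median of 2.33-fold. For this gene the T cell level is no measure of free RNA. In library 4 the levels in macrophages, monocytes and dendritic cells (129, 73 and 96.4 CPM) were the lowest of the 12.

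Nos2, the inducible nitric oxide synthase (ENSMUSG00000020826; chr11:78920787-78960254, plus strand), was scarce and uneven, with 13302 UMIs in all. Macrophages stood at 8.62 to 16.0 CPM with a median of 11.8 CPM, and at a median of 6.83 CPM with a stricter gate that doubled the own-marker minimum. Monocytes spanned 5.34 to 77.8 CPM (median 18.3 CPM), and exceeded macrophages in 8 of 12 libraries. Neutrophils spanned 4.14 to 178 CPM (median 46.1 CPM) and exceeded macrophages in 8 of 10 libraries. Their median was 121 CPM when at least 200 neutrophils were asked for, which fewer libraries held. The exceptions were libraries 1 and 7, in each of which the neutrophils held a single Nos2 UMI, whereas the 3 highest neutrophil values were 178 CPM in library 11, 167 CPM in library 10 and 130 CPM in library 12. Dendritic cells held no Nos2 UMI in 6 of 12 libraries and at most 11.5 CPM, in library 4. T cells stood at 0.550 to 5.98 CPM in 10 libraries. In library 12 they stood at 37.5 CPM, above macrophages (16.0 CPM), and all 26 UMIs of that sum lay in 1 of its 92 T cells. Thinned to 1000 UMIs, Nos2 was found in 1.16% of macrophages (0.969% to 1.54%), 6.55% of neutrophils (0% to 17.0%) and 0.149% of T cells (0% to 1.09%) in the median and range over libraries.

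A large part of Nos2 lay outside the gated classes. Ungated cells held 33.1% of its UMIs, at up to 125 CPM (library 4), and those of them with no marker of another lineage held 26.4%. These 13711 cells, called low-marker cells from here on, and the macrophages were therefore placed together by their content of the 5 macrophage markers. Under 20 marker UMIs per 10000 there were 7242 low-marker cells, and at 20 to 60 there were 6249. The remaining low-marker cells were in no bin. The median Nos2 level over the 12 libraries was 28.6 CPM under 20 marker UMIs per 10000, 66.4 CPM at 20 to 60, 35.0 CPM at 60 to 100, 16.2 CPM at 100 to 150, 6.22 CPM at 150 to 200 and 4.29 CPM at 200 and over. The macrophages with the least marker exceeded those with the most in 12 of 12 libraries, by a median of 9.15-fold. Arg1 was also highest at 20 to 60 and lower in each bin above it, at 1234, 1783, 1144, 854, 567 and 419 CPM, and its ratio between the same macrophages was 2.52-fold, in 12 of 12 libraries. Arg2 stood at 15.6 CPM at 60 to 100 and 4.61 CPM at 200 and over, and was higher at the low end in 12 of 12 libraries. Slc7a2 (127 to 75.7 CPM) was higher at the low end in 10 of 12 libraries, Ass1 (78.1 to 53.0 CPM) in 11 of 12 and Odc1 (261 to 231 CPM) in 9 of 12. Il4i1 was low throughout these macrophages (1.45 and 0.952 CPM in the median) and higher at the low end in 5 of 12, and Ido1 had a median of 0 in every bin. Csf1r ran the other way, from 356 to 565 CPM, and the median depth of the cells went from 3621 to 8260.5 UMIs between the same bins; its part in the pattern was not tested.

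**Figure D2:**
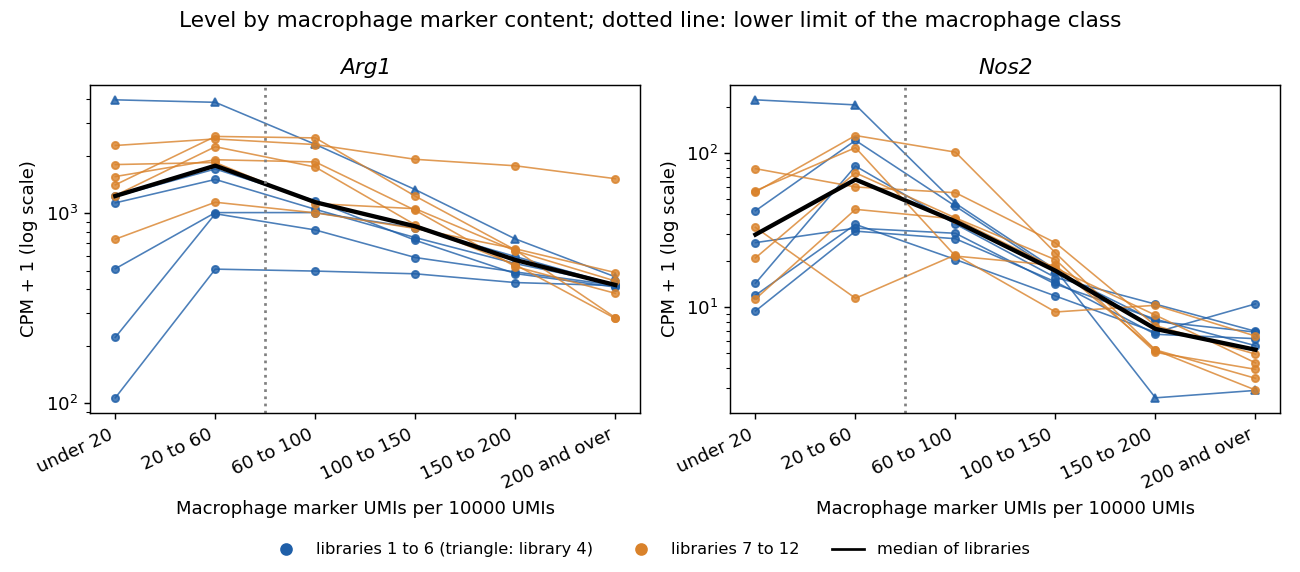
Arg1 and Nos2 level (CPM + 1, log axis) in macrophages and low-marker cells, divided by their UMIs of C1qa, C1qb, C1qc, Ms4a7 and Adgre1 per 10000; thin lines are the 12 libraries, the thick black line is their median, and the dotted line marks the lower limit of the macrophage class. The Nos2 median was 66.4 CPM at 20 to 60 and 4.29 CPM at 200 and over, and that of Arg1 1783 and 419 CPM.

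Within macrophages, Arg1 was unevenly spread among single cells. The 10% of cells with the highest Arg1 share of their UMIs held 49.5% of its UMIs in the median library (34.6% to 66.7%), and a single cell held up to 487 Arg1 UMIs. Ranked by each gene in turn, the top 10% held 55.9% of Slc7a2 UMIs (44.6% to 68.5%), 54.6% of Ass1 UMIs (44.2% to 88.3%) and 33.8% of Odc1 UMIs (30.8% to 37.2%). For Nos2 they held all of its UMIs in 12 of 12 libraries, since 91.3% to 97.6% of macrophages had none, and a single cell held up to 51. Macrophages without a UMI were also many for Slc7a2 (43.7% to 79.0%) and Ass1 (48.4% to 88.4%). They were 11.7% to 55.3% for Arg1 and 20.6% to 50.5% for Odc1. Low counts alone raise the share of the top 10%, and their part in these shares was not tested.

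Arg1 and Nos2 are often used as markers of opposed macrophage states, and both were sought in the same cells. Macrophages were thinned to 2000 UMIs, which kept 69536 and left out 10802, of which 8870 belonged to library 6. Arg1 was found in 41.9% of cells in the median library (32.2% to 74.9%), Nos2 in 1.78% (1.41% to 2.48%) and both in 1.43% (0.989% to 2.08%). The share with both depended on the setting, at 4.56% without thinning, 0.789% at 1000 UMIs, 0.836% with a stricter gate (own-marker minimum doubled) and 0.299% when 2 UMIs of each gene were asked for. Cells with Nos2 more often had Arg1 than cells without: 77.8% (62.6% to 96.3%) against 41.2% (31.0% to 74.5%). The difference was 35.2 percentage points in the median and 18.9 to 55.6 points over the libraries, and 53.5 points in the median when 2 UMIs of each gene were asked for. It was positive in 12 of 12 libraries, and in all 12 the exact 95% binomial (Clopper-Pearson) intervals of both shares lay apart; these intervals cover counting error only. The difference was 18.9 points in library 7, where 74.5% of cells without Nos2 already had Arg1, and 55.6 points in library 10. Read the other way, Nos2 was found in 3.65% of macrophages with Arg1 (2.28% to 5.99%) and in 0.686% of those without (0.175% to 1.06%), a ratio of 4.78 in the median library (18.9 with 2 UMIs of each gene) and of 2.37 to 22.1 over all. The ratio of 22.1, in library 4, rests on 3 cells with Nos2 only.

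In all, 983 thinned macrophages had both transcripts, 321 had Nos2 only, 29815 had Arg1 only and 38417 had neither. The states rest on the thinned counts, so a cell without a transcript could hold UMIs of it that thinning removed. Without thinning, 32610 of the 80338 macrophages had neither. The median UMI counts of these 4 states over libraries were 8063, 9012, 9398.5 and 8941, so cells with both were not the deepest. When the cells of each library were divided by depth into 4 equal groups, without thinning, the difference in the share with Arg1 was 32.8 points in the shallowest (median 5558.5 UMIs) and 24.5, 20.4 and 16.3 points in the deeper ones, and it was positive in 12, 12, 11 and 12 of 12 libraries. The gate had already limited T cell and neutrophil markers in macrophages, so their levels bear on no difference between the states, and the part of mixed droplets was not tested.

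**Figure D3:**
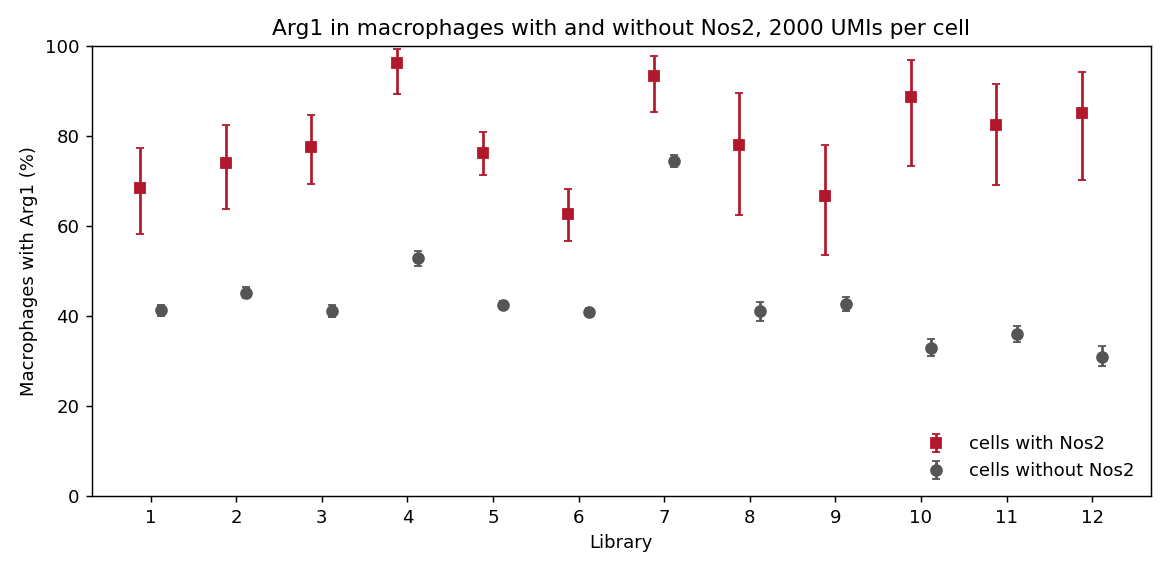
Share of macrophages with at least 1 Arg1 UMI (percent) in each of the 12 libraries, among cells with Nos2 (red squares) and without Nos2 (grey circles), after thinning to 2000 UMIs; bars are exact 95% binomial intervals. The squares lie between 62.6% and 96.3%, above the circle of the same library in all 12.

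The low-marker cells showed the same pairing at a higher level. Of the 8221 with at least 2000 UMIs, 5490 having been left out, Nos2 was found in 6.33% in the median library (2.31% to 21.5%), and library 4 gave the 21.5%. Without library 4 the highest share was 11.5%. Arg1 was found in 88.3% of those with Nos2 and 45.3% of those without, a difference of 38.9 points (23.1 to 58.4), positive in 12 of 12 libraries. In monocytes the difference was 46.2 points in the median and positive in 10 of 11 libraries with a Nos2 cell, with intervals apart in 7. It rests on 194 cells with Nos2, and library 6, the exception, had 2 of them. In neutrophils, not thinned because 62.9% of them had fewer than 2000 UMIs, Arg1 was found in 19.4% of cells with Nos2 and 8.07% of those without in the median of the 10 libraries with at least 50 neutrophils. The difference had a median of 8.19 points. It ran from -15 points in library 7, with 1 Nos2 cell, to 32.9 points in library 3, with 5. It was positive in 8 of the 10, with intervals apart in 2, and the part of depth was not tested.

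Other members differed between these states. Slc7a2 stood at a median of 54.4 CPM in macrophages with neither transcript, 129 CPM with Arg1 only and 326 CPM with both. The last exceeded the first in 12 of 12 libraries by 3.58- to 14.0-fold, with a median of 5.35-fold, and cells with Arg1 only did so in 12 of 12 libraries by a median of 2.2-fold. Arg2 stood at 5.55, 8.31 and 21.7 CPM, with cells with both higher than cells with neither in 12 of 12 libraries by a median of 3.71-fold. Ass1 divided the states differently: it was lower in cells with Arg1 only than with neither in 11 of 12 libraries (median ratio 0.822), and higher in cells with Nos2 only in 6 of 6 libraries that held at least 20 of them (median 1.77-fold; libraries 1, 2, 3, 5, 6 and 9). Odc1 was nearly level, with a median ratio of 0.996 for Arg1 only and 0.934 for both.

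Of 4 lists of genes with known inducers, the one that followed the states most was that of hypoxia: Vegfa, Slc2a1, Bnip3, Ero1l, Ndrg1, Pdk1, Adm, Egln3 and Ankrd37, which cells switch on when oxygen is scarce. Its summed level was 365 CPM in macrophages with neither transcript (259 to 471 CPM over libraries), 735 CPM with Arg1 only (531 to 1285 CPM) and 2259 CPM with both (1764 to 4186 CPM), with no overlap between these ranges. Cells with both exceeded cells with neither by 4.10- to 11.9-fold, with a median of 6.29-fold. Every one of the 9 genes was higher with Arg1 only than with neither in 12 of 12 libraries, and 8 of 9 were higher with both, Adm being so in 11. Of the 11056 genes with at least 1 CPM in the mean of these macrophages, Arg1 and Nos2 aside, 9.21% were higher with Arg1 only in all 12 libraries and 5% with both. All 4 lists were chosen with earlier results of these data known, so the contrast with all genes is descriptive only. Egln3, which marks proteins for oxygen-dependent breakdown, had a median of 4.10 CPM with neither and 107 CPM with both, and Ndrg1 15.8 and 290 CPM. In the 6 libraries with enough cells with Nos2 only, the list stood 4.09-fold above cells with neither (2.49- to 5.10-fold).

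The list of interferon-gamma targets (Irf1, Cxcl9, Cxcl10, Gbp2, Gbp2b, Gbp5, Ciita and Socs1) lay on opposite sides of 1 in the cells with Arg1 only and with Nos2 only. Cells with Arg1 only lay below cells with neither in 12 of 12 libraries, with a median ratio of 0.674 (0.484 to 0.828) and 6 of the 8 genes lower in all 12 (7.52% of the 11056 genes were). Cells with Nos2 only lay above them in 6 of 6, by a median of 1.47-fold (1.23- to 1.77-fold), where Irf1 and Gbp5 were higher in all 6 libraries (3.70% of the 11056 genes were) and Ciita in 1. Thinned to 1000 UMIs, Nos2 only was higher in 4 of the 5 libraries with enough such cells (median 1.28-fold). Cxcl9, a chemokine that attracts T cells, stood at 314 CPM with Arg1 only against 502 CPM with neither. Cells with both were spread to either side, from 0.185 to 1.29 times the level of cells with neither, and were higher in 4 of 12 libraries. The list of IL-4 and STAT6 targets (Retnla, Chil3, Mrc1, Ccl24, Pdcd1lg2, Mgl2 and Egr2) was higher with Arg1 only in 12 of 12 libraries by a median of 1.29-fold (1.01- to 1.73-fold), and within it Mrc1, a mannose receptor, stood at 374 CPM against 296 CPM and Egr2 at 72.4 CPM against 46.4 CPM, each higher in 12 of 12, as were no others of its 7 genes, against 9.21% of all genes, and nothing is read from 2 of 7. With Nos2 only the list was higher in 1 of 6 libraries (median ratio 0.889), with Egr2 higher and Retnla and Mrc1 lower in all 6, as were 3.70% and 10.7% of all genes. The list of NF-kB targets (Il1b, Il1a, Tnf, Ptgs2, Nfkbia, Nfkbiz, Tnfaip3 and Il6) stayed nearer to 1, with median ratios of 0.875, 1.05 and 0.910 for Arg1 only, Nos2 only and both; with Arg1 only, 1 of the 8 genes (Ptgs2) was higher in 12 of 12 libraries and 1 (Nfkbiz) lower, against 9.21% and 7.52% of all genes, and nothing is read from these counts. Beside these, cells with both had fewer macrophage marker UMIs than cells with neither, 12731 against 17453 CPM in the median and lower in 12 of 12 libraries, and a lower sum of the cycling genes Mki67, Top2a and Birc5 (151 against 326 CPM, lower in 12 of 12); their part in the list values was not tested.

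**Figure D4:**
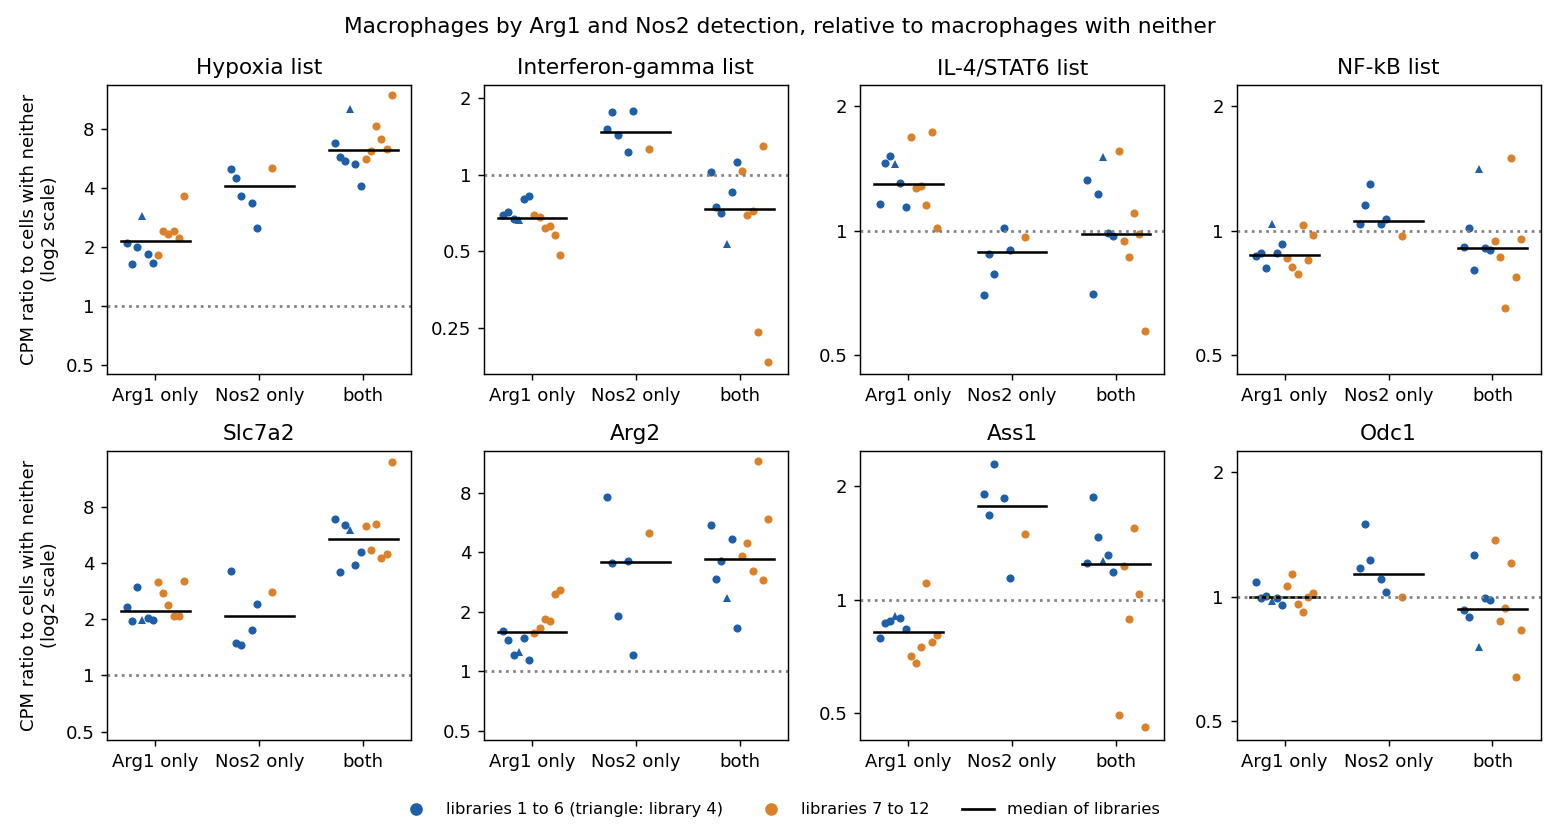
Ratio of the level in macrophages with Arg1 only, Nos2 only or both to that in macrophages with neither (log2 axis, dotted line at 1), for 4 summed lists and for Slc7a2, Arg2, Ass1 and Odc1; points are libraries with at least 20 cells of the state (blue for 1 to 6, triangle for 4, orange for 7 to 12) and black lines are medians. The hypoxia list lay above 1 in every library shown, with medians of 2.16, 4.09 and 6.29, and the interferon-gamma list lay below 1 with Arg1 only (median 0.674) and above 1 with Nos2 only (median 1.47).

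Il4i1, a secreted oxidase of aromatic amino acids that acts on phenylalanine and tryptophan (ENSMUSG00000074141; chr7:44816387-44840809, plus strand), stood apart in dendritic cells among the gated classes. Dendritic cells stood at 112 CPM in the lowest library, 167 CPM in the median and 528 CPM in the highest. The 528 CPM belonged to library 4, and without it the highest was 302 CPM. T cells stood at 0 to 8.29 CPM. The other classes were low as well, with 0.424 to 1.68 CPM in macrophages, 0.491 to 23.2 CPM in monocytes and 0 to 6.70 CPM in neutrophils, and the lowest dendritic value lay above all of them. Dendritic cells exceeded macrophages by 88.3- to 405-fold with a median of 167-fold. Mature dendritic cells, gated on Ccr7, Fscn1, Cacnb3, Ccl22, Nudt17 and Socs2 (970 cells), carried 2251 of the 2609 dendritic UMIs. They stood at 213 to 772 CPM (median 369 CPM) in the 7 libraries with at least 50 of them, and held 41.1% of all 5472 Il4i1 UMIs. Ungated cells held 32.9% (17.6% to 55.7% over libraries), and in library 6 they held 55.7% against 23.3% in dendritic cells. The 107 dendritic cells gated on Cd209a, fewer than 50 in every library, stood at 169 CPM in all, with Il4i1 in 24.3% of cells. Without library 7, whose 9 such cells held 57 of the 145 UMIs, they stood at 111 CPM, with Il4i1 in 21.4% of cells. Type 1 conventional dendritic cells, gated on Xcr1, Clec9a and Gcsam, stood at 1.85 to 5.43 CPM in the 3 libraries with at least 50. Thinned to 1000 UMIs, Il4i1 was found in 26.7% of mature dendritic cells (18.5% to 48.4%) and in 0% of T cells in the median (0% to 0.675%). Il4i1 lies in a crowded stretch: Nup62 overlaps 14426 bases of it on the same strand, and Tbc1d17 and Atf5 on the opposite strand.

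The dendritic subsets differed for other members as well. Ass1 stood at 88.8 to 271 CPM in mature dendritic cells (7 libraries) and 27.8 to 38.0 CPM in the type 1 subset (3 libraries). Odc1 stood at 71.8 to 245 CPM against 287 to 487 CPM. These ranges cover unlike sets of libraries, so their lack of overlap is not read. Over all libraries type 1 Ass1 was 48.6 CPM, above its range. Within the 3 libraries with both subsets, Ass1 was higher in mature cells in 3 of 3, by 3.20- to 4.51-fold. Odc1 had the opposite order in 3 of 3, by 1.55- to 2.70-fold. How many of all genes differ in this way was not tested. Cycling genes moved with Odc1, Mki67 standing at 122 CPM in the type 1 subset and 22.5 CPM in mature cells over all libraries. The part of cycling in the Odc1 difference was not tested.

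Ido1, the enzyme that opens the kynurenine route of tryptophan breakdown (ENSMUSG00000031551; chr8:24584136-24597009, minus strand), was close to absent. It had 55 UMIs in 53 of the 128912 kept cells. Dendritic cells held 10 of them, all in mature cells, at 0 to 2.16 CPM over libraries, against 17 in macrophages, 3 in monocytes, none in neutrophils, 4 in T cells and 19 in ungated cells. As a share of cells over all libraries, it was found in 0.505% of dendritic cells (exact 95% interval 0.243% to 0.927%), 0.0212% of macrophages (0.0123% to 0.0339%) and 0.0647% of T cells (0.0176% to 0.165%), and in 0 of 3421 neutrophils, where the interval reaches 0.108%. The dendritic interval lay above the other 3, but 6 of 12 libraries held no dendritic Ido1 UMI. Libraries 5 and 6 held 13 of the 17 macrophage UMIs and none in 737 dendritic cells, where the interval reaches 0.499%, so no order of these classes could be read there. The intervals cover counting error only, and no order of the other classes could be read at this depth. Mature dendritic cells held it in 1.03% of cells (0.495% to 1.89%).

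The wider pathways were taken from lists of 25 genes of arginine and polyamine metabolism and 15 genes of tryptophan metabolism. By median CPM, macrophages led 10 of the 25, dendritic cells 7, neutrophils 4 and monocytes 2, and 2 had a median of 0 in every class. Of the 16797 genes of the matrix with a median above 0 in some class, macrophages led 51.0%, dendritic cells 24.7%, neutrophils 13.5% and monocytes 10.8%, and they led 9.09%, 4.78%, 4.01% and 1.10% in all 10 libraries that held every class. The counts of the list lay at a share of 10, 7, 4 and 2 of 23 genes with a leading class, and nothing particular to the list is read from them. Oaz1 is an antizyme that holds Odc1 in check. It was the most abundant of these 25 genes in macrophages (935 CPM), monocytes (925 CPM) and dendritic cells (1082 CPM). In neutrophils it stood at 606 CPM, below Sat1. Sat1, which acetylates polyamines for export, stood at 971 CPM in neutrophils, 827 CPM in macrophages, 654 CPM in monocytes and 226 CPM in dendritic cells. Gatm, which uses arginine for creatine synthesis, was led by macrophages in 10 of 10 libraries, with 505 CPM against 315 CPM in monocytes and 59.4 CPM in neutrophils. Smox, spermine oxidase, was led by neutrophils in 10 of 10, with 559 CPM against 82.7 CPM in macrophages. Of the tryptophan list, macrophages led 6 genes, dendritic cells 5, neutrophils 1 and monocytes 1, out of 13 with a leading class and against the same shares over all genes. The 4 that dendritic cells led in 10 of 10 libraries were Kmo (51.9 CPM against 1.71 CPM in macrophages), Kynu (41.2 against 7.51 CPM), Haao (14.5 against 3.80 CPM) and Ahr (159 against 23.2 CPM); the first 3 are enzymes of the kynurenine route and Ahr is a receptor that senses its products. Kynu and Haao were named after their values were seen. Slc3a2, the heavy chain of several amino acid transporters, stood at 391 CPM in macrophages and 567 CPM in neutrophils. Wars, of the same list, stood at 27.8 CPM in macrophages, 30.8 CPM in monocytes and 11.1 CPM in neutrophils.

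The genes with the most similar pattern were ranked by Pearson correlation of log2(CPM + 10) over the 46 class and library sums of the 4 classes, among 10566 genes; the sums of 1 library share its depth and free RNA, and the coefficients are descriptive. For Arg1 they were Fn1 (r = 0.96), Ecm1 (0.93), Msr1 (0.93), Lrp1 (0.91) and Fcgr1 (0.91). For Arg2 they were Sgms2, Rab44, 2310001H17Rik, Csf3r and Litaf (0.97 to 0.98), and for Il4i1 Strip2, Cacnb3, Cacna1s, Ccl22 and Fscn1 (0.97 to 0.98); Csf3r, Cacnb3 and Fscn1 were also used in the gates, as was Ccl22 for the mature subset. For Nos2 they were A930007I19Rik (0.88), Hilpda (0.87), Plin2 (0.86), Bnip3 (0.85) and Ero1l (0.84), of which Bnip3 and Ero1l are on the hypoxia list. That list was chosen with earlier results known, and nothing is read from this overlap. Slc7a2 was closest to Mertk (0.90), Il1rl2, Selenop, Mrc1 and Grn, and Ass1 to Tspo (0.83), Fis1, Myl12a, Vim and Crtc3. The nearest genes to Odc1 reached at most 0.77 (Cadm1, Dnase1l3, Cd83, Cdk1 and Paqr4). Ido1 was ranked as well, but its counts were too sparse for the ranking to be read, and its genes are not named. Over the 12 macrophage sums alone, Arg1 was closest to Ftl1-ps1 (0.92), Dhrs9, Dusp7, Lfng and Gm3839, and Nos2 to Pgf (0.91), Gm7160, Wdr20, Mx1 and Hspbap1. These are the best of many genes over only 12 points, and nothing is read from them. Ftl1-ps1 is a ferritin pseudogene whose UMIs cannot be told from those of near-identical copies.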

How the data were processed

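The deposited file was 1 matrix of raw UMI counts per gene and barcode for all libraries, without normalization. Per the labels, CD45+ cells were run on 10x Genomics 3' v3 kits. The submitters' processing notes name Cell Ranger 2.1.1, Seurat and the build mm10, whereas the header of the matrix gives the software version as 3.0.2; the sources used here do not give how overlapping and antisense genes were counted. Cells were kept by the study's limits, over 200 genes, under 5000 genes and no more than 10% of UMIs from mitochondrial genes, which left 128912 of 140639 barcodes, and the total the study states lies between these numbers. The study's minimum of 3 cells per gene was not applied.

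The deposited counts were summed per class and library (at least 50 cells) and scaled to CPM. Gates used UMIs of lineage markers per 10000; their thresholds were set after the marker distributions were seen. The members and lists were chosen with earlier results of these data known. Monocytes needed at least 20 marker UMIs per 10000 (4 UMIs of 2 genes) and under 40 of macrophage markers, macrophages under 20 of monocyte markers, dendritic cells 4 UMIs of 2 genes, neutrophils at least 60 per 10000 from 3 genes, and T and B cells 3 UMIs of 2 genes. Cells with more than 1 UMI of T, B, NK, mast or plasma cell markers, or with markers of another myeloid class above a limit, were left out of the myeloid classes; no doublet caller was run. B cells reached 50 cells in 1 library only and were not used. Cells were thinned by random draws without replacement to 2000 or 1000 UMIs. Binomial intervals are exact, at 95%. No library was assigned to a treatment from its number, its cells or its transcripts, since the labels give no such map; no comparison between treatment groups was made and no p-value is given. The named genes were the 8 members, the genes of the context lists and the 5 genes closest to each member but Ido1 in correlation. The 3 genes of each pathway list with the highest median CPM in each class were named too. Kynu and Haao fall outside this rule and were chosen after their values were seen. The marker, cycling and sex-linked genes given as checks also fall outside it. One gene of the interferon-gamma list and the arginase sequences are not reported here, for a reason unrelated to their values, and the gene was left out of the list. The likeness ranking was run on simulated data in which planted genes followed Arg1 and the others were drawn at constant rates. This checked the calculation only and lends no support to the ranking of the real genes. Positions are from GENCODE on GRCm38 and coding sequences from its transcripts, compared by alignment with Biopython 1.88. Scripts ran under pandas 2.3.3, scipy 1.17.1, numpy 2.4.6, matplotlib 3.10.9 and Python 3.11.15.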

Additional observations from a re-analysis of the deposited data

How the results depend on the processing

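Of 520 alternative values for 29 results, 497 kept their direction and moved by less than the spread over libraries (or, for counts, by under 1.5 times), 21 moved further and 2 reversed. Subtracting the T cell level gave Odc1 values of -362 CPM in macrophages and -353 CPM in dendritic cells, because T cells were the highest class for Odc1, and lowered Ass1 in macrophages from 62.0 to 4.78 CPM and Nos2 from 11.8 to 8.48 CPM. For Ass1 the T cell level may also lie above free RNA, so 4.78 CPM may be too low. A stricter gate (own-marker minimum doubled) gave 6.83 CPM for Nos2 in macrophages, 1.45 CPM for Ido1 in dendritic cells (0.575 CPM before) and 0.836% of macrophages with both Arg1 and Nos2 (1.43% before). A mitochondrial limit of 5% gave 14.6 CPM and 1.94% for the same Nos2 level and share. Leaving out the top 10% of cells by UMIs gave 1.49 CPM for Ido1 in dendritic cells, and a minimum of 200 cells gave 121 CPM for Nos2 in neutrophils (46.1 CPM before), from fewer libraries. The share with both was 4.56% without thinning, 0.789% at 1000 UMIs, 5.58% in low-marker cells, 2.36% in monocytes and 0.299% when at least 2 UMIs were asked of each gene, which also raised the difference in the Arg1 share from 35.2 to 53.5 points and the Nos2 ratio from 4.78 to 18.9. Beyond the reversals, the cause was not tested. Leaving out 1 library at a time moved 5 of 332 values: the arginine and polyamine genes led by monocytes numbered 1 to 3 (2 with all libraries), with 1 each time library 4, 7, 9, 11 or 12 was left out. The alternatives on libraries 1 to 6, libraries 7 to 12 and other classes were chosen after the data were seen. Shares of cells depend on depth, low counts limit Ido1 and Nos2 in dendritic cells, and intervals cover counting error only. No paired analysis was possible because the libraries carry no label that ties them to a group or replicate.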
